A study of Mus musculus with 3 samples.

Results

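Glycolysis splits glucose into pyruvate, and lactate dehydrogenase and the monocarboxylate transporters then dispose of the pyruvate as lactate. Most genes of this route are induced by the hypoxia-inducible factors (HIFs), transcription factors that are degraded when oxygen is present because prolyl hydroxylases mark them for destruction. HIFs also induce genes outside the route, among them the prolyl hydroxylases themselves, the mitophagy receptor gene Bnip3 and secreted factors of blood vessel growth. Mouse ES cells and the early epiblast are known for a strongly glycolytic metabolism.

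The genes described here are 35 symbols of this kind, matched by gene name in the deposited gene expression table of 55487 entries. They fall into 21 glycolytic members, which are 17 enzyme genes with 2 glucose and 2 lactate transporter genes, and 14 other hypoxia-induced members. The symbols took 36 entries, because Aldoa had a second one with 19 counts with C2 ceramide, against 31 with DMSO on day 4 and 24 with DMSO on day 3, and the entry with the most counts was used. All 35 were among the 17655 genes in use, those that reached 10 counts in any library, and 33 had at least 100 counts in every library. The glycolytic members had at least 200 counts in each library without exception.

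The RNA came from embryoid bodies (EBs), aggregates in which ES cells begin to form the first lineages, and the question of the comparison is what C2 ceramide, a cell-permeable ceramide with a short acyl chain, changes on the day the primitive streak genes appear. All EBs were made from 1 wild-type (WT) mouse ES cell line, E14K, in hanging drops without LIF, the cytokine that keeps ES cells undifferentiated. The groups were EBs on day 4 after 30 μM C2 ceramide from the start of day 3, EBs on day 4 with the solvent DMSO, and EBs on day 3 with DMSO. Each group had 1 library and no replicate, so no difference between groups was tested, and each is given by its size.

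Total estimated counts were between 33619197 and 35290094, and genes with a TPM (a level scaled by transcript length and library total) of at least 1 numbered between 13421 and 13683. A member is called higher or lower where the ratio of its TPM values was above 2 or below 0.5, the thresholds the study used. The interval beside a log2 TPM ratio is the exact 95% interval of the counts. It describes the error of counting alone, not how cultures vary. The labelled cell type was present, with summed TPM of 5 pluripotency and epiblast markers of 2374 with C2 ceramide, against 1503 with DMSO on day 4 and 3141 with DMSO on day 3. The markers of other lineages differed between the day 4 libraries. The 3 primitive streak markers summed to 26.9 TPM with C2 ceramide, against 329 TPM with DMSO on day 4, the 2 definitive endoderm markers to 3.71 against 286 TPM, and the 3 neural markers to 18.0 against 4.12 TPM. Of the neural sums, Tubb3 alone gave 16.5 of the 18.0 TPM and 3.69 of the 4.12 TPM. Sox1 and Pax6 were at 0.524 and 0.921 TPM with C2 ceramide, against 0 and 0.430 TPM with DMSO on day 4. The markers of visceral endoderm, trophoblast and fibroblasts summed to at most 5.29 TPM each in any library. The 4 markers of endothelium and blood summed to 12.8 TPM with C2 ceramide, against 19.2 TPM with DMSO on day 4 and 10.4 TPM with DMSO on day 3, and of these Kdr was at 0.964 against 12.1 TPM and Pecam1 at 9.68 against 4.66 TPM on day 4. Their part in the ratios below was not tested, and in bulk RNA fewer cells of a type and less RNA per cell cannot be told apart.

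The promoters of 4 members on which the results turn are shown first: Ldha, the most abundant member with DMSO, Slc16a1, the member with the largest difference between the DMSO days, and Adm and Egln3, the members with the lowest ratios of C2 ceramide over DMSO on day 4. Each run is the 250 bases before the RefSeq start of the gene (GRCm38.p6), read 5′ to 3′ on the strand of the gene, and capitals mark each match to ACGTG or GCGTG, the core of the HIF binding motif, on either strand. Slc16a1 lies at chr3:104638414-104638663 on the plus strand, Ldha at chr7:46845554-46845803 on the plus strand, Adm at chr7:110627407-110627656 on the plus strand and Egln3 at chr12:54203875-54204124 on the minus strand.
Ldha: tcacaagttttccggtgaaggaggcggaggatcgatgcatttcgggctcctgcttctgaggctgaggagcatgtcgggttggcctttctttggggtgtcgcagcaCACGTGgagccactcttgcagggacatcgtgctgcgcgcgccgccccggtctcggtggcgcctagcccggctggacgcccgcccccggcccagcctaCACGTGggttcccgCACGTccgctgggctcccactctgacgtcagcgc
Slc16a1: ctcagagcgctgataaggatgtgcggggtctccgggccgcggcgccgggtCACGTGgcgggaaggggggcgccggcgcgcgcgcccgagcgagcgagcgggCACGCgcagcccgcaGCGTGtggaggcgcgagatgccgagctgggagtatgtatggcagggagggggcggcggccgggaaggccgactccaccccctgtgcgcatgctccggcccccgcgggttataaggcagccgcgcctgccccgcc
Adm: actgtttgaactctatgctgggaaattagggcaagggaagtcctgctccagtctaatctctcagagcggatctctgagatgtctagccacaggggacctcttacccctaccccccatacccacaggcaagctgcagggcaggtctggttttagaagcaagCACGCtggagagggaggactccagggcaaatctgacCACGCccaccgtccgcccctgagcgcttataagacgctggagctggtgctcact
Egln3: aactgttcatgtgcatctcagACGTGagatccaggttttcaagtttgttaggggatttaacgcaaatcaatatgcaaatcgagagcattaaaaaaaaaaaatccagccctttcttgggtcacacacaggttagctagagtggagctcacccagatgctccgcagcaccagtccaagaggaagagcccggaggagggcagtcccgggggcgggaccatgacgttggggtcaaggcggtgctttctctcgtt
The palindrome CACGTG counts as 2 matches, 1 on each strand, so Ldha held 5 matches, Slc16a1 held 4, Adm held 2 and Egln3 held 1. By symbol, 33 of the 35 members had a promoter, and 30 of the 33 (90.9%) held a match in at least 1 of them. Of the protein-coding genes in use, 59.7% of 11533 held one, and of all genes with a promoter 41.5% of 27025. The share of promoters was 77.4% of 31 for the glycolytic members and 77.8% of 18 for the others, against 53.9% of 14746 promoters of protein-coding genes in use and 38.6% of all 32851 promoters, and Slc2a3 and Ndrg1 were not among the genes matched. The share per gene is easier to reach for a gene with more promoters, and no share was matched to the members by base content or level. A match is a description of these letters and says nothing of whether a factor was bound.

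On day 4, C2 ceramide left 10 of the 35 members (28.6%) lower than DMSO did and 25 within 2-fold, and it left none higher. Over all genes in use, 12.3% were lower and 9.97% were higher. Among protein-coding genes with a mean TPM of at least 10, a class that holds 31 members, 2.20% of 7233 genes were lower and 1.98% were higher, and 9 of the 31 members were lower. The lower members were Adm, Egln3, Ndrg1, Bnip3, Egln1, Slc16a1, Ankrd37, Ldha, P4ha1 and Aldoc. For all of these except Aldoc the whole interval lay below 0.5-fold, as it did for 4.47% of all genes in use. That share includes genes with few counts, whose intervals are wide, and is not matched to the members by level. The 2 classes of members differed in how many were called: 3 of 21 glycolytic members (14.3%) were lower, against 7 of 14 other hypoxia-induced members. The median log2 TPM ratio was −0.41 for the glycolytic members and −1.04 for the others, against −0.03 over all genes in use.

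**Figure D1:**
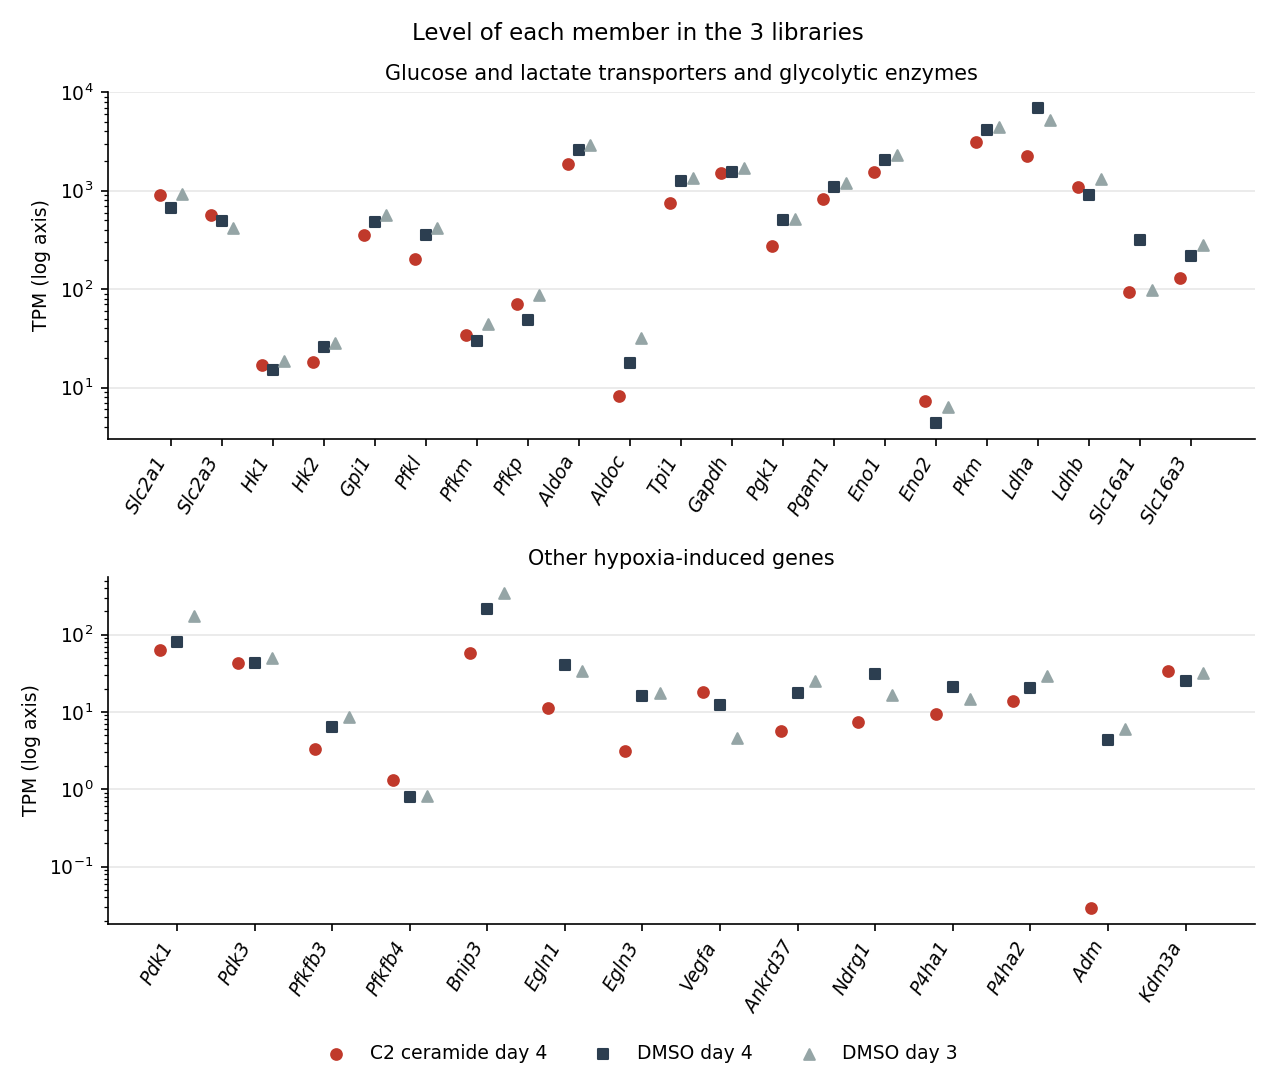
TPM of each member (log axis) in the libraries of C2 ceramide day 4 (circles), DMSO day 4 (squares) and DMSO day 3 (triangles), 1 library each, for the glycolytic members (top) and the other hypoxia-induced members (bottom). Ldha stands at 2245 TPM with C2 ceramide, against 6963 TPM with DMSO on day 4, and Adm at 0.029 TPM, against 4.37 TPM.

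Summed over the 21 glycolytic members, TPM amounted to 15660 with C2 ceramide, against 23664 with DMSO on day 4 and 23957 with DMSO on day 3, which is 1.57% of all TPM with C2 ceramide, 2.37% with DMSO on day 4 and 2.40% with DMSO on day 3. The summed TPM was therefore nearly level between the DMSO days, with a log2 ratio of −0.02, and lower by 0.60 on the log2 scale with C2 ceramide. Ldha carried much of this difference. Without it, the other 20 members summed to 13415 TPM with C2 ceramide. With DMSO they summed to 16701 TPM on day 4 and 18685 TPM on day 3. C2 ceramide thus stood at −0.32 on the log2 scale against DMSO day 4, and DMSO day 4 at −0.16 against DMSO day 3. Between the DMSO days, 18 of the 21 members were below 0 and 3 above. Ldha was among the 3, at 6963 TPM on day 4 against 5271 TPM on day 3, and this kept the full sum nearly level. The 14 other hypoxia-induced members summed to 272 TPM with C2 ceramide, against 534 TPM with DMSO on day 4 and 758 TPM with DMSO on day 3. Their summed level thus differed between the DMSO days too, with a log2 ratio of −0.50 for day 4 over day 3. Nearly all of that difference lay in Bnip3, at 215 TPM on DMSO day 4 against 347 TPM on DMSO day 3, and Pdk1, at 80.2 against 172 TPM. The median log2 TPM ratio of the 14 members was −0.26.

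Glucose enters these cells through GLUT1 and GLUT3, and their genes were not below DMSO day 4 with C2 ceramide. Slc2a1, the gene of GLUT1, was at 901 TPM with C2 ceramide, against 675 TPM with DMSO on day 4 and 937 TPM with DMSO on day 3. Slc2a3, the gene of GLUT3, was at 561 TPM with C2 ceramide, against 491 TPM with DMSO on day 4 and 414 TPM with DMSO on day 3. Both were thus above DMSO day 4 with C2 ceramide by less than 2-fold, with log2 TPM ratios of 0.42 (interval 0.40 to 0.43) and 0.19 (interval 0.18 to 0.21). These are known HIF targets in several cell types, and here they stood on the other side of 0 from most of the route they feed.

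The upper steps of glycolysis take glucose to triose phosphate. Of their 9 members, 6 were below DMSO day 4 with C2 ceramide and 3 were above it, with a median log2 TPM ratio of −0.45, and Aldoc was past 2-fold. The hexokinases trap glucose in the cell: Hk2 was at 18.0 TPM with C2 ceramide, against 25.9 TPM with DMSO on day 4 and 28.4 TPM with DMSO on day 3. Hk1, the more widely expressed form, was at 17.1 TPM, against 14.9 TPM and 18.8 TPM with DMSO on day 4 and day 3. The log2 TPM ratio of Hk2 on day 4 was −0.52, but −0.20 from counts scaled to the library total (CPM), which leave transcript length out, so part of the TPM ratio came from the lengths assigned in the 2 libraries. Gpi1, which makes fructose 6-phosphate, had a log2 TPM ratio of −0.45.

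Phosphofructokinase, which commits sugar to the route, showed the forms apart. Pfkl, the liver form and the most abundant of the family here, was at 204.5 TPM with C2 ceramide, against 352 TPM with DMSO on day 4 and 415 TPM with DMSO on day 3. Pfkp, the platelet form, was at 71.0 TPM with C2 ceramide, against 48.5 TPM with DMSO on day 4 and 87.3 TPM with DMSO on day 3. Pfkm, the muscle form, was at 34.5 TPM, against 29.9 TPM and 44.6 TPM with DMSO on day 4 and day 3. On day 4, Pfkl was therefore below DMSO with C2 ceramide, with a log2 TPM ratio of −0.78 (interval −0.81 to −0.76), while Pfkp and Pfkm were above it, with 0.55 (interval 0.49 to 0.60) and 0.21 (interval 0.13 to 0.29), and none of the family was past 2-fold. Genes on the opposite strand overlap both: Pitrm1 overlaps Pfkp, with 7874 counts with C2 ceramide, against 7672 counts with DMSO on day 4, and Senp1 overlaps Pfkm, with 3698 against 3670 counts. Against DMSO day 3, Pfkl had a log2 TPM ratio of −1.02, just past 2-fold, and −0.98 from CPM, just within it.

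Aldolase splits the sugar. Aldoa, which made up at least 98.9% of the TPM of Aldoa and Aldoc in each library, was at 1888 TPM with C2 ceramide, against 2573 TPM with DMSO on day 4 and 2895 TPM with DMSO on day 3, a log2 TPM ratio of −0.45 on day 4. Aldoc, the form best known from brain, was at 8.28 TPM with C2 ceramide, against 17.9 TPM with DMSO on day 4 and 32.2 TPM with DMSO on day 3. Aldoc was lower on day 4 with C2 ceramide, with a log2 TPM ratio of −1.11 (interval −1.28 to −0.95), and its level also differed between the DMSO days, with −0.85. Tpi1, which interconverts the 2 triose phosphates, had a log2 TPM ratio of −0.76.

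In the lower steps, from triose phosphate to pyruvate, 5 of 6 members were below DMSO day 4 with C2 ceramide by TPM, and none was past 2-fold. These 5 include Gapdh, which was nearly level and whose sign turned under the count scalings, and the sixth, Eno2, has no clear direction. Gapdh, often used as a reference gene, was at 1516 TPM with C2 ceramide, against 1542 TPM with DMSO on day 4 and 1702 TPM with DMSO on day 3. Its log2 TPM ratio of −0.02 on day 4 (interval −0.04 to −0.01) was the value nearest to 0 among the 17 enzyme genes, and was 0.003 from CPM. Pgk1, the first step that makes ATP, had the lowest ratio of these steps, with 277 TPM with C2 ceramide, against 499 TPM with DMSO on day 4 and 518 TPM with DMSO on day 3, a log2 TPM ratio of −0.85 (interval −0.88 to −0.82). Between them lay Pgam1, which moves the phosphate, with −0.40. Eno1, the ubiquitous enolase, was at 1537 TPM with C2 ceramide, against 2046 TPM with DMSO on day 4 and 2333 TPM with DMSO on day 3, a log2 TPM ratio of −0.41. Eno2, the form of neurons, was at 7.34 TPM with C2 ceramide, against 4.37 TPM with DMSO on day 4 and 6.40 TPM with DMSO on day 3. On day 4 the log2 TPM ratio of Eno2 was 0.75 over all transcripts, but it turned to −0.44 over its protein-coding transcripts, which held 26.2% of its TPM with C2 ceramide, against 59.6% with DMSO on day 4, so no direction is given for it.

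Pyruvate kinase makes pyruvate and the second ATP. Pkm was at 3141 TPM with C2 ceramide, against 4116 TPM with DMSO on day 4 and 4449 TPM with DMSO on day 3, a log2 TPM ratio of −0.39 on day 4. Its transcripts use 1 of 2 mutually exclusive exons, the upstream one giving the M1 form of adult muscle and brain and the downstream one the M2 form of embryonic and proliferating cells. The M2 transcript, with the coding exon at chr9:59675568-59675734 (GRCm38), was at 3001 TPM with C2 ceramide, against 3941 TPM with DMSO on day 4 and 4235 TPM with DMSO on day 3. The M1 transcript, with the coding exon at chr9:59675029-59675195, was at 61.7 TPM, against 67.5 TPM and 100.3 TPM with DMSO on day 4 and day 3. Both exons are 167 bases long and both transcripts encode 531 residues, and the M2 form was far more abundant than the M1 form in all 3 libraries.

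On day 4, the lactate end of the route held the largest differences among the glycolytic members, those of Slc16a1 and Ldha. Ldha, which turns pyruvate into lactate, was at 2245 TPM with C2 ceramide (93315 counts), against 6963 TPM with DMSO on day 4 (283680 counts) and 5271 TPM with DMSO on day 3 (211015 counts). It was lower with C2 ceramide by 3.10-fold on day 4, a log2 TPM ratio of −1.63 (interval −1.64 to −1.62), and below DMSO day 3 as well, with −1.23. Ldhb, the heart form, which is known to favour the turn of lactate to pyruvate, was at 1087 TPM with C2 ceramide, against 901 TPM with DMSO on day 4 and 1308 TPM with DMSO on day 3. Its log2 TPM ratio on day 4 was 0.27 (interval 0.25 to 0.29), on the other side of 0 from that of Ldha.

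Slc16a1, the gene of the monocarboxylate transporter MCT1, which carries lactate and pyruvate in either direction, had the pattern of a gene that was more abundant on DMSO day 4 alone. Its level was 93.2 TPM with C2 ceramide (10776 counts), against 315.5 TPM with DMSO on day 4 (36313 counts) and 98.6 TPM with DMSO on day 3 (11120 counts). With C2 ceramide it was lower by 3.39-fold on day 4, a log2 TPM ratio of −1.76 (interval −1.79 to −1.73), and within 0.08 of DMSO day 3 on the log2 scale, since the DMSO day 4 level was higher than that of DMSO day 3 by 3.20-fold. Slc16a3, the gene of the lactate exporter MCT4, was at 130.6 TPM with C2 ceramide, against 217 TPM with DMSO on day 4 and 282 TPM with DMSO on day 3. The log2 TPM ratio of Slc16a3 was −0.73 against DMSO day 4 and −1.11 against DMSO day 3, so it was past 2-fold in the second comparison alone. Csnk1d overlaps Slc16a3 on the opposite strand, with 9422 counts with C2 ceramide, against 11954 and 8276 counts with DMSO on day 4 and day 3, and the library kit does not mark strand.

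**Figure D2:**
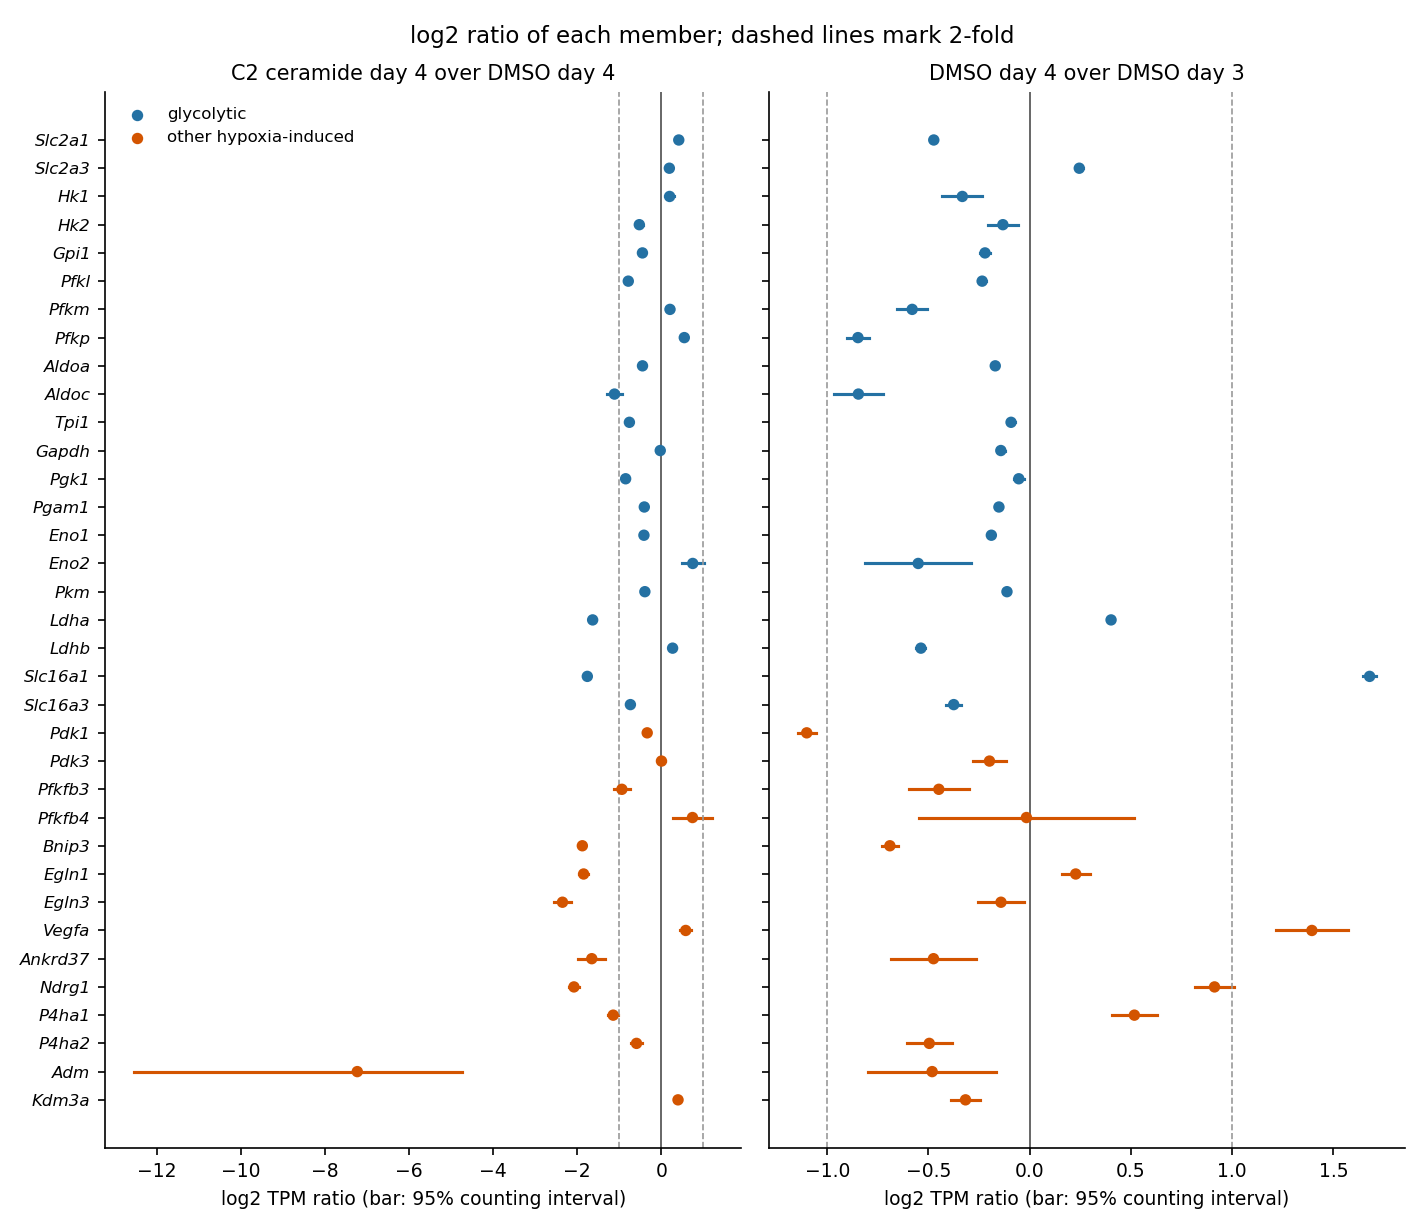
log2 TPM ratio of each member for C2 ceramide day 4 over DMSO day 4 (left) and DMSO day 4 over DMSO day 3 (right), with the 95% interval from the counts as a bar, glycolytic members in blue and other hypoxia-induced members in orange. The 10 members left of −1 in the left panel include Ldha at −1.63 and Slc16a1 at −1.76, and the members right of 1 in the right panel are Slc16a1 at 1.68 and Vegfa at 1.39; both panels use the same DMSO day 4 library.

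Among the genes that steer pyruvate and fructose bisphosphate, differences on day 4 were within 2-fold, and Pdk1 and Pfkfb3 were past 2-fold against DMSO day 3. Pdk1, a kinase that keeps pyruvate out of the mitochondrion, was at 63.6 TPM with C2 ceramide, against 80.2 TPM with DMSO on day 4 and 172 TPM with DMSO on day 3. Pdk3, a kinase of the same family, was at 43.0 TPM, against 42.9 TPM and 49.2 TPM with DMSO on day 4 and day 3. Pdk1 was thus the member called lower between the DMSO days, with a log2 TPM ratio of −1.10 (interval −1.15 to −1.06). Over its protein-coding transcripts this ratio was −0.93, and that of C2 ceramide over DMSO day 3 was −0.97, both within 2-fold. Pdk3 stayed within 0.20 of 0 on the log2 scale in all 3 comparisons. Pfkfb3, whose product raises fructose 2,6-bisphosphate and so speeds glycolysis, was at 3.30 TPM with C2 ceramide (327 counts), against 6.32 TPM with DMSO on day 4 (646 counts) and 8.63 TPM with DMSO on day 3 (904 counts). Its log2 TPM ratio on day 4 was −0.94, and its interval of −1.13 to −0.74 reached past 2-fold. Pfkfb4, of the same family, was at 1.34 TPM with C2 ceramide, against 0.798 TPM with DMSO on day 4 and 0.807 TPM with DMSO on day 3, from 122, 60 and 65 counts in these libraries. The log2 TPM ratio of Pfkfb4 on day 4 was 0.74 (interval 0.29 to 1.21), but 1.02 from CPM and 1.54 over protein-coding transcripts, which would call it higher.

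Both oxygen sensor genes among the members were lower with C2 ceramide on day 4. Egln2, a further prolyl hydroxylase gene outside the members, named outside the rule for other genes, was not lower. Its level was 43.3 TPM with C2 ceramide, against 36.8 TPM with DMSO on day 4 and 34.3 TPM with DMSO on day 3. Egln1, the gene of PHD2, the main prolyl hydroxylase that marks HIF for destruction, was at 11.1 TPM with C2 ceramide (1065 counts), against 39.9 TPM with DMSO on day 4 (3810 counts) and 34.1 TPM with DMSO on day 3 (3188 counts). Egln3, the gene of PHD3, a hydroxylase that HIF itself strongly induces, was at 3.15 TPM with C2 ceramide (234 counts), against 16.05 TPM with DMSO on day 4 (1180 counts) and 17.7 TPM with DMSO on day 3 (1274 counts). The log2 TPM ratio on day 4 was −1.85 (interval −1.95 to −1.75) for Egln1 and −2.35 (interval −2.56 to −2.15) for Egln3. In the DMSO libraries both genes were nearly level between the days, with log2 TPM ratios of 0.23 and −0.14, so the C2 ceramide library stood apart from both DMSO libraries.

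Bnip3, which encodes a receptor that sends mitochondria to autophagy, was at 58.5 TPM with C2 ceramide (2120 counts), against 215 TPM with DMSO on day 4 (7954 counts) and 347 TPM with DMSO on day 3 (12503 counts). It was lower by 3.68-fold on day 4, a log2 TPM ratio of −1.88 (interval −1.95 to −1.81), and by 5.93-fold against DMSO day 3. The antisense gene Gm45507 overlaps it, with 8.05 counts with C2 ceramide, against 43.2 and 67.5 counts with DMSO on day 4 and day 3. Ankrd37, an ankyrin repeat gene known as a HIF-1 target, was at 5.67 TPM with C2 ceramide (112 counts), against 17.9 TPM with DMSO on day 4 (329 counts) and 24.8 TPM with DMSO on day 3 (446 counts). On day 4 its log2 TPM ratio was −1.65 (interval −1.98 to −1.34), and Ufsp2, which overlaps it on the opposite strand, had 938 counts with C2 ceramide, against 1180 and 899 counts with DMSO on day 4 and day 3.

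Ndrg1, a stress-response gene that hypoxia induces in many cells, was at 7.41 TPM with C2 ceramide (627 counts), against 31.3 TPM with DMSO on day 4 (2527 counts) and 16.6 TPM with DMSO on day 3 (1297 counts). It was lower with C2 ceramide in both comparisons, by 4.22-fold on day 4 and by 2.24-fold against DMSO day 3, and between the DMSO days its log2 TPM ratio was 0.91 (interval 0.82 to 1.01). P4ha1 and P4ha2 encode catalytic subunits of the prolyl 4-hydroxylase that collagen needs to fold. P4ha1 was at 9.47 TPM with C2 ceramide, against 20.9 TPM with DMSO on day 4 and 14.6 TPM with DMSO on day 3, and P4ha2 was at 13.7 TPM, against 20.6 TPM and 29.1 TPM with DMSO on day 4 and day 3. P4ha1 was past 2-fold on day 4, with a log2 TPM ratio of −1.14 (interval −1.27 to −1.02), and P4ha2 was past it against DMSO day 3, with −1.08 (interval −1.21 to −0.96). Kdm3a, which encodes a histone H3 lysine demethylase, was the other hypoxia-induced member that differed least between the C2 ceramide and DMSO day 3 libraries, at 33.6 TPM with C2 ceramide, against 25.5 TPM with DMSO on day 4 and 31.8 TPM with DMSO on day 3. On day 4 its log2 TPM ratio was 0.40, but 0.17 from CPM and 0.03 over protein-coding transcripts.

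The secreted factors lay on opposite sides of 0 on day 4. Adm, which encodes the vasodilator peptide adrenomedullin, lies at chr7:110627661-110629820 (GRCm38) and had 1 count with C2 ceramide (0.029 TPM), against 147 counts with DMSO on day 4 (4.37 TPM) and 200 counts with DMSO on day 3 (6.10 TPM). Its log2 TPM ratio on day 4 was −7.24, with a wide interval of −12.55 to −4.74 because it rests on that 1 count. Vegfa, the gene of the main growth factor of blood vessels, was at 18.2 TPM with C2 ceramide (1276 counts), against 12.1 TPM with DMSO on day 4 (829 counts) and 4.62 TPM with DMSO on day 3 (383 counts). It was higher on DMSO day 4 than on DMSO day 3, with a log2 TPM ratio of 1.39 (interval 1.22 to 1.57), or 1.05 from CPM, and higher still with C2 ceramide against DMSO day 3, with 1.98. Against DMSO day 4, its log2 TPM ratio with C2 ceramide was 0.58 (interval 0.45 to 0.71), within 2-fold. In TPM over all transcripts, Vegfa was thus the one member of the 35 called higher with C2 ceramide in any comparison. Over protein-coding transcripts alone, Pfkfb4 was past 2-fold too, with log2 TPM ratios of 1.54 against DMSO day 4 and 1.08 against DMSO day 3.

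The other comparisons read against their own backgrounds as follows. For DMSO day 4 over DMSO day 3, 2 members, Slc16a1 and Vegfa, were higher and 1, Pdk1, was lower, where 12.8% of all genes in use were higher and 9.45% were lower. The median log2 TPM ratio of the 35 members was −0.20, with 28 of them below 0, against 0.05 over all genes in use. For C2 ceramide day 4 over DMSO day 3, 13 members (37.1%) were lower and Vegfa was higher, where 9.39% of all genes in use were lower and 11.2% were higher. The lower ones were Pfkl, Aldoc, Ldha and Slc16a3 among the glycolytic members, and Pdk1, Pfkfb3, Bnip3, Egln1, Egln3, Ankrd37, Ndrg1, P4ha2 and Adm among the others, with median log2 TPM ratios of −0.56 and −1.28 for the 2 classes. With the threshold at 1.5-fold in place of 2-fold, C2 ceramide left 16 members lower and 2 higher than DMSO on day 4, where 19.5% of all genes in use were lower and 16.4% higher. The 2 include Eno2 by its value over all transcripts. Against DMSO day 3 the numbers were 20 lower and 2 higher, where the shares of all genes were 15.7% and 18.2%, and between the DMSO days 4 members were lower and 3 higher on day 4, where the shares were 15.4% and 20.4%. Over the 3 comparisons, 16 members were past 2-fold at least once and 19 never. The comparisons share libraries, so their values stand side by side and are not independent of each other.

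Within families, C2 ceramide and DMSO libraries differed in the size of the share that each paralog held, a pattern chosen for description after the values were seen. Ldha held 67.4% of the TPM of Ldha and Ldhb with C2 ceramide (interval 67.1 to 67.7), against 88.5% with DMSO on day 4 (interval 88.4 to 88.7) and 80.1% with DMSO on day 3 (interval 79.9 to 80.3). Pfkl held 66.0% of the phosphofructokinase TPM with C2 ceramide, against 81.8% with DMSO on day 4 and 75.9% with DMSO on day 3. Hk2 held 51.3% of the TPM of Hk1 and Hk2 with C2 ceramide, against 63.4% with DMSO on day 4 and 60.2% with DMSO on day 3. In these 3 families the paralog that was most abundant with DMSO held a smaller share with C2 ceramide than in either DMSO library. Aldolase and the glucose transporters did not follow it on day 4: Aldoa held 99.6% of the TPM of its pair with C2 ceramide, against 99.3% with DMSO on day 4, and Slc2a1 held 61.6%, against 57.9%. Of the pairs outside the route, Pdk1 held 59.7% with C2 ceramide, against 65.2% with DMSO on day 4 and 77.8% with DMSO on day 3, and Egln1 held 77.9%, against 71.3% and 65.8% with DMSO on day 4 and day 3. For the lactate transporters, Slc16a1 held 41.6% of the TPM with C2 ceramide, against 59.2% with DMSO on day 4 and 25.9% with DMSO on day 3.

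**Figure D3:**
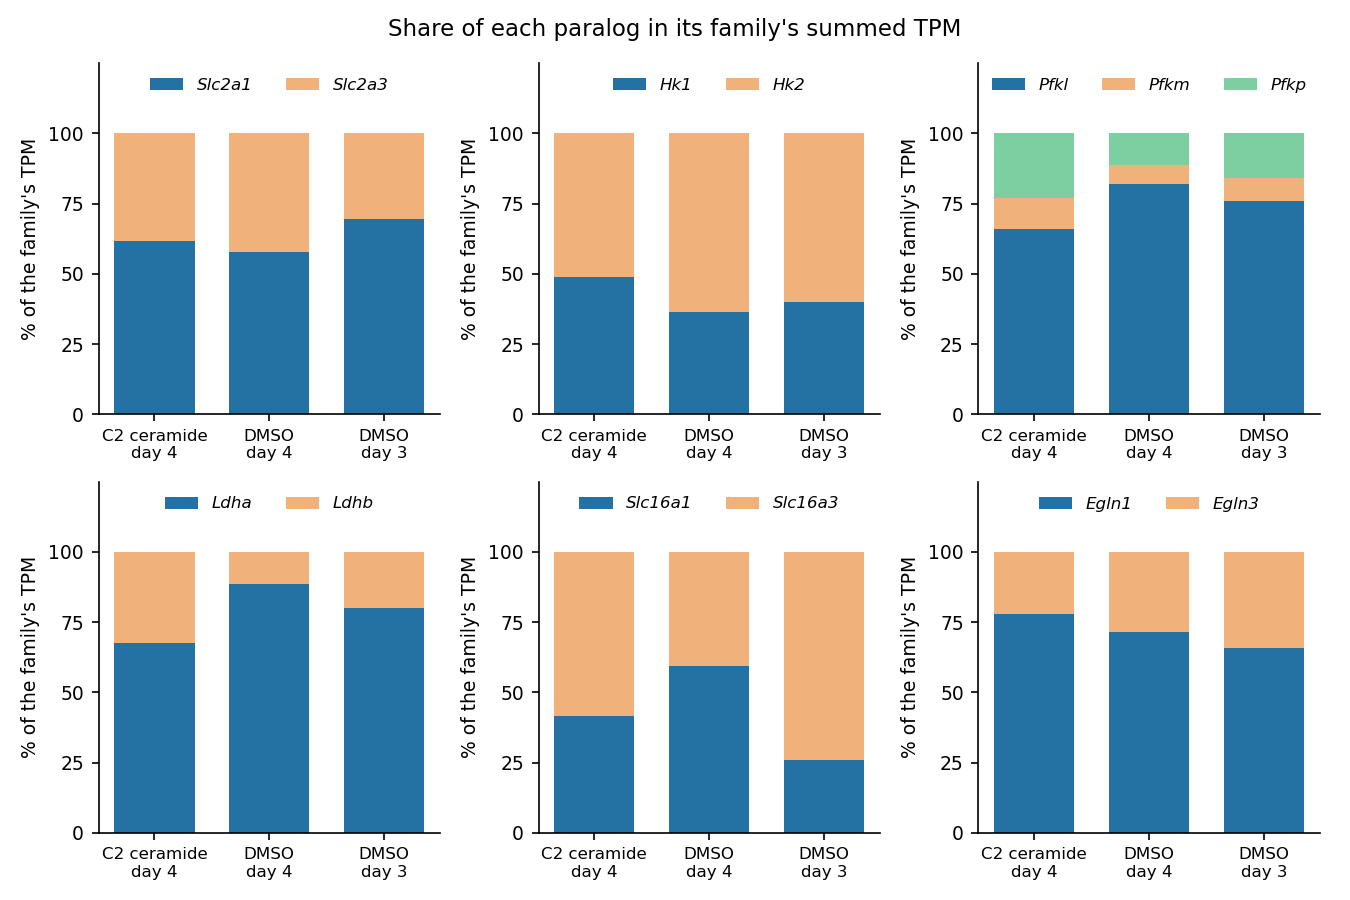
Share of each paralog in its family's summed TPM (percent, stacked bars from 0) for C2 ceramide day 4, DMSO day 4 and DMSO day 3, 1 library each. Ldha holds 67.4% with C2 ceramide, against 88.5% and 80.1% with DMSO on day 4 and day 3, and Pfkl 66.0%, against 81.8% and 75.9%.

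Several glycolytic genes have near-identical copies that share reads with them, so their own levels are uncertain. Eno1b, a copy of Eno1, was listed at 3931 TPM with C2 ceramide, against 5286 TPM with DMSO on day 4 and 6044 TPM with DMSO on day 3, more than Eno1 itself. The copies of Pgam1 were at 745 TPM with C2 ceramide, against 1017 TPM with DMSO on day 4, those of Pgk1 at 155 against 234 TPM and those of Gapdh at 334 against 353 TPM. The ratios hardly depended on this: with the copies added, the log2 TPM ratio on day 4 was −0.42 for Eno1, −0.43 for Pgam1, −0.76 for Pgk1 and −0.03 for Gapdh. Copies of Ldha held 0.0755% of the joint TPM with DMSO on day 4. The summed TPM of the glycolytic members and their percentages of all TPM leave the copies out, as does the rank of Ldha as the most abundant member.

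Of 15 HIF pathway components, which act above these genes, C2 ceramide left 1 higher and none lower than DMSO did on day 4, where 9.97% of all genes in use were higher and 12.3% lower. Their median log2 TPM ratio was 0.14. Hif1a, the gene of the main oxygen-regulated subunit, named outside the rule for these lists and after its values were seen, was at 76.8 TPM with C2 ceramide, against 62.8 TPM with DMSO on day 4 and 63.5 TPM with DMSO on day 3, a log2 TPM ratio of 0.29 on day 4 (interval 0.24 to 0.34). HIF protein was not measured in these libraries. The component called higher was Epas1, the gene of HIF-2α, which was scarce at 0.922 TPM with C2 ceramide, against 0.409 TPM with DMSO on day 4 and 0.861 TPM with DMSO on day 3. Hif3a, a family member with inhibitory forms, was at 2.48 TPM with C2 ceramide, against 5.53 TPM with DMSO on day 3, a log2 ratio of −1.15 from TPM and, within 2-fold, of −0.78 from CPM. Cited2, which encodes an inhibitor that competes with HIF for its coactivators, was higher on DMSO day 4 than on DMSO day 3, at 87.0 against 32.0 TPM, and was at 69.9 TPM with C2 ceramide.

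Of 29 other HIF target genes, C2 ceramide left 5 lower and 2 higher than DMSO did on day 4, where 12.3% of all genes in use were lower and 9.97% higher. The median log2 TPM ratio was −0.41, the same to 2 decimals as for the glycolytic members. Pgf, which encodes a growth factor of the VEGF family, was at 0.990 TPM with C2 ceramide, against 3.56 TPM with DMSO on day 4 and 1.99 TPM with DMSO on day 3. Loxl2, which encodes a lysyl oxidase of the extracellular matrix, was at 3.36 TPM with C2 ceramide, against 9.44 TPM with DMSO on day 4 and 9.24 TPM with DMSO on day 3. These were lower on day 4, with log2 TPM ratios of −1.85 (interval −2.38 to −1.35) and −1.49 (interval −1.67 to −1.31). The remaining lower genes, named after their values were seen to complete the count, were Fam162a with a log2 TPM ratio of −1.11, Mxi1 with −1.09, and Car9, which encodes a carbonic anhydrase widely used as a hypoxia marker. Car9 had 0 counts with C2 ceramide, against 12 counts with DMSO on day 4 and 19 counts with DMSO on day 3, so it was at least 4.02-fold lower on day 4 against a floor of 3 counts per library. The 2 higher genes were Stc2, which encodes a stanniocalcin also induced by endoplasmic reticulum stress, and Cxcl12, which encodes a chemokine. Stc2 was at 7.03 TPM with C2 ceramide, against 2.10 TPM with DMSO on day 4 and 1.42 TPM with DMSO on day 3, and Cxcl12 was at 7.79 TPM, against 2.64 TPM and 15.0 TPM with DMSO on day 4 and day 3.

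Of 21 glycolytic enzymes and isozymes outside the 35 members, 16 were in use, and on day 4 C2 ceramide left 3 of these higher, where 9.97% of all genes in use were higher. Eno3, the enolase of muscle, was the abundant one among them, at 46.5 TPM with C2 ceramide, against 20.6 TPM with DMSO on day 4 and 20.9 TPM with DMSO on day 3, a log2 TPM ratio of 1.18 (interval 1.05 to 1.30). The others rested on few counts and are named after their values were seen to complete the count: Hkdc1 with a log2 TPM ratio of 1.11 (interval 0.24 to 2.03) and Pgam2 with 1.09 (interval 0.27 to 1.95).

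**Figure D4:**
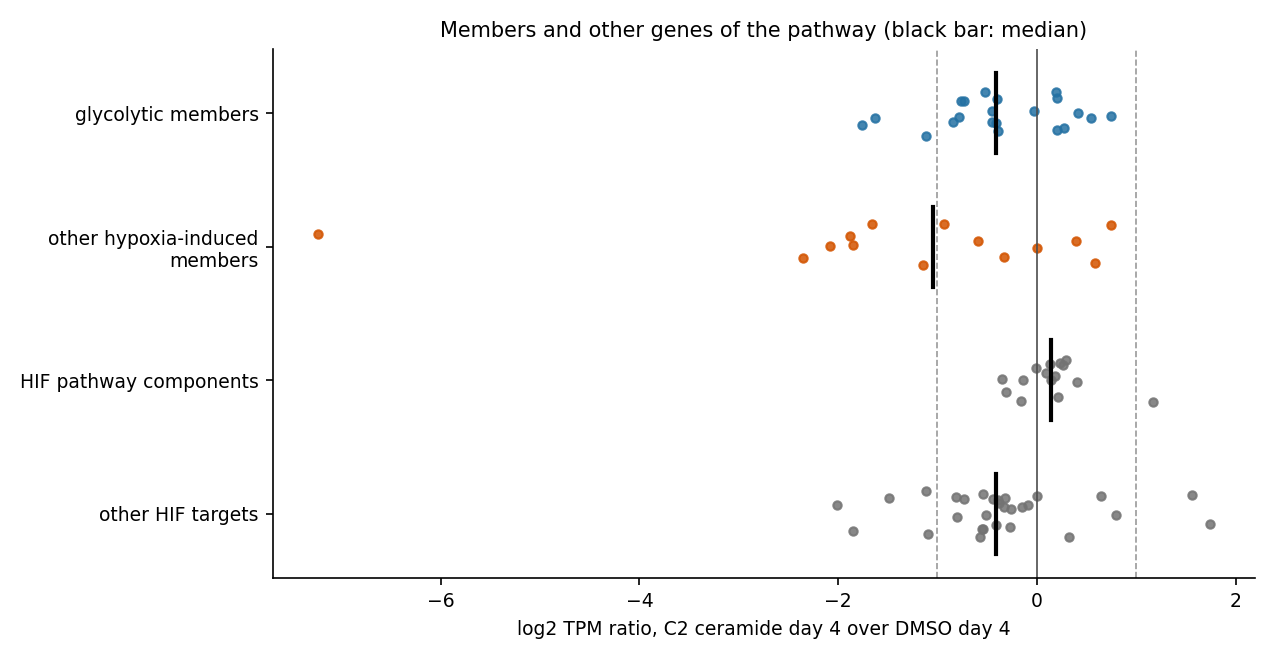
Horizontal axis, log2 TPM ratio between the day 4 libraries, C2 ceramide over DMSO, for the members in their 2 classes and for the genes in use of 2 further lists, 1 point per gene, with the median as a black bar; Car9 is drawn at its bound. The medians lie at −0.41 for the glycolytic members, −1.04 for the other hypoxia-induced members, 0.14 for HIF pathway components and −0.41 for other HIF targets.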

How the data were processed

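RNA of 3 EB libraries, 1 per condition, was sequenced after SMART-Seq v4 cDNA synthesis, a kit that does not mark strand. Mapping was done by the authors with DRAGEN (GRCm38, GENCODE M25). Their deposited tables list TPM and estimated counts, for 55487 genes in one and 142699 transcripts in the other. The deposited estimated counts (expected counts) are not normalized, and they were whole, within 0.005, in all libraries for 20 members and shared out among genes for 15. Both can move with how reads are shared between copies and with the transcript lengths assigned, so ratios were also taken from CPM (counts scaled to the library total).

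The tools for TPM ratios were SciPy 1.17.1, pandas 2.3.3 and NumPy 2.4.6 under Python 3.11.15, and Matplotlib 3.10.9 drew the figures. TPM values of 0 were replaced by 0.001. Intervals are exact conditional (Clopper-Pearson) 95% intervals of rounded counts, shifted to the TPM ratio, and they count PCR copies separately. With 1 library per condition conditions could not be tested, and p-values are not given. On simulated data with counting error alone, all genes set well past 2-fold, at a mean of at least 100 counts, were recovered. No gene was set near the threshold, so calls close to 2-fold were not tried. The members and lists were chosen with earlier results of these data known. Members past 2-fold in any comparison, the 5 with the highest mean TPM and their paralogs are described with all values, and the remaining members with fewer. Of each of 7 other lists at most 4 genes are named, those with the largest day 4 ratio among genes past 2-fold in any comparison with at least 50 counts in a library. Genes named outside this rule are said to be so, and 1 gene of these lists is not reported here. Copies and overlapping genes were looked for after the values were seen. Promoters are from RefSeq (GRCm38.p6), where 33 members matched by symbol, and exon positions from GENCODE M21 (GRCm38). Alternatives were pseudocounts of 0.1 and 1 TPM, a minimum of 100 counts or none, and a threshold of 1.5-fold. Others were CPM, TMM factors (edgeR 4.0.16), DESeq2 1.42.0 size factors and protein-coding transcripts alone. The factors were taken in R 4.3.3 on rounded counts.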

Additional observations from a re-analysis of the deposited data

How the results depend on the processing

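With 1 library per condition, no replicate could be left out, and no value here shows how much EB cultures vary. No paired analysis was possible because each condition had 1 library. Of 770 member ratios recomputed under the alternatives, 760 kept their sign, and none of those past 2-fold changed it. Of 199 past 2-fold, 196 stayed past it. Part of this was fixed in advance. Raising the count minimum or leaving it out changed no member ratio, and a pseudocount cannot turn a sign. The ratios that came within 2-fold were those of Pfkl against DMSO day 3, at −0.98 (CPM), −0.995 (TMM) and −0.99 (DESeq2 size factors). Pfkfb4 on day 4 came past 2-fold, at 1.02, 1.04, 1.03 and, over protein-coding transcripts, 1.54. This raised the number of members that C2 ceramide left higher on day 4 to 1 under the 3 count scalings. Protein-coding transcripts entered these numbers for C2 ceramide over DMSO on day 4 only. Over them, Pdk1 was within 2-fold for DMSO day 4 over DMSO day 3, at −0.93, and for C2 ceramide over DMSO day 3, at −0.97. In the latter comparison Pfkfb4 was past 2-fold over them, at 1.08. At a 1.5-fold threshold this number was 2, with 16 members lower; against DMSO day 3, 2 members were higher and 20 lower, and 4 were lower for DMSO day 4 over DMSO day 3. The median log2 ratio of the glycolytic members was −0.39 (CPM), −0.37 (TMM) and −0.37 (DESeq2 size factors) for C2 ceramide over DMSO on day 4. It was −0.59 (TMM) and −0.58 (DESeq2 size factors) against DMSO day 3, and −0.24, −0.27 and −0.26 under the 3 count scalings for DMSO day 4 over DMSO day 3. Low genes set the counts over the 7 other lists. With a pseudocount of 1 TPM, C2 ceramide left 5 of their genes higher and 6 lower than DMSO on day 4, 4 were higher and 6 lower against DMSO day 3, and 2 were higher and 2 lower for DMSO day 4 over DMSO day 3. With a minimum of 100 counts, 4 were higher and 9 lower against DMSO day 3, and 2 were higher and 4 lower between the DMSO days. With a pseudocount of 0.1 TPM, 5 were lower between the DMSO days. In the main analysis, 9 were higher and 10 lower on day 4, 8 higher and 14 lower against DMSO day 3, and 6 higher and 9 lower between the DMSO days.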

Other observations

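On day 4, C2 ceramide left 12.3% of all genes in use lower and 9.97% higher, and the counts for the neighbouring pathways are given beside these shares. Of 13 genes of pyruvate entry into mitochondria, C2 ceramide left 1 lower and none higher: Pdp1, which encodes a phosphatase that activates pyruvate dehydrogenase, was at 2.19 TPM, against 4.53 TPM with DMSO on day 4, a log2 ratio of −1.05 from TPM and, within 2-fold, of −0.86 from CPM. Pcx, the gene of pyruvate carboxylase, was within 2-fold on day 4 and lower against DMSO day 3, at 9.99 TPM with C2 ceramide, against 21.3 TPM with DMSO on day 3. Pdp2, a phosphatase gene of the same kind as Pdp1, was at 1.22 TPM with C2 ceramide, against 1.34 TPM with DMSO on day 4 and 2.72 TPM with DMSO on day 3. Of 8 genes of the pentose phosphate pathway, 1 was lower, the scarce Rpia, with 16 counts with C2 ceramide, against 54 counts with DMSO on day 4. Rpia had 12 counts with DMSO on day 3. Its log2 TPM ratio was −0.23 (interval −1.41 to 0.98) for C2 ceramide over DMSO day 3, and 1.79 for DMSO day 4 over DMSO day 3.

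Of 12 genes in use of gluconeogenesis and glycogen, 2 were higher on day 4 with C2 ceramide and 1 was lower. Pck2, which encodes the mitochondrial enzyme that makes phosphoenolpyruvate, was at 72.7 TPM with C2 ceramide, against 25.2 TPM with DMSO on day 4 and 19.0 TPM with DMSO on day 3, a log2 TPM ratio of 1.53 (interval 1.45 to 1.61) on day 4. The other higher gene, Fbp2, had 34 counts with C2 ceramide, against 2 counts with DMSO on day 4, and is named to complete the count. Pgm1, which links glycogen and glucose phosphate, was lower, at 36.2 TPM with C2 ceramide, against 74.5 TPM with DMSO on day 4, a log2 TPM ratio of −1.04 (interval −1.11 to −0.97). Of 14 genes of the MYC family and other regulators of glycolytic genes, Mycl was lower, at 23.3 TPM with C2 ceramide, against 63.1 TPM with DMSO on day 4, and Esrrb, a pluripotency factor gene, was higher, at 10.98 TPM with C2 ceramide, against 4.26 TPM with DMSO on day 4. Myc, named outside the rule for these lists, was within 2-fold, at 39.4 TPM with C2 ceramide, against 47.5 TPM with DMSO on day 4.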
